A study of Homo sapiens with 6 samples.

Results

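The aminoacyl-tRNA synthetases and their scaffold proteins were described in U2OS cells silenced for CCAR2. The members were 37 genes chosen by symbol, with 19 cytosolic enzymes, 16 mitochondrial enzymes and the scaffold proteins AIMP1 and AIMP2, and every probe of these genes was taken. Of the 37, 35 had a named probe, with 40 probes among the 47321 of the array, and all 35 were among the 12013 genes tested. CARS1 and AIMP2 were matched to no named probe here and were not analysed. Of the 40 probes, 36 were detected. Detection here means that at least 1 array gave a p-value under 0.01 when the probe was set against negative control beads.

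U2OS is a human osteosarcoma cell line. Cells received either siLUC, which the labels call control siRNA (siCTRL), or siCCAR2, a pool of 4 siRNAs against CCAR2, and total RNA was taken 6 days later from 3 cultures per condition, described as independent. All cultures were of the same line, grown in the same medium and transfected with the same reagent, and each was hybridized to 1 Illumina HT12_v4 bead array. Array letters are the sections of the single chip, A, B and C for siLUC and D, E and F for siCCAR2, so that position on the chip and silencing cannot be told apart.

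Aminoacyl-tRNA synthetases join each amino acid to its tRNA, and so supply the ribosome. Human cells hold a cytosolic set and a mitochondrial set, both encoded in the nucleus and mostly by separate genes, whereas GARS1 and KARS1 give rise to the enzymes of both compartments. Several cytosolic enzymes sit with the scaffold proteins AIMP1 and AIMP2 in the multisynthetase complex. The stress-response factor ATF4 is known to drive many of the cytosolic genes when amino acids are short or when the initiation factor eIF2 is phosphorylated.

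ATF4 binds, with a C/EBP partner, a composite element whose core was searched here as TGATGNAA on both strands of the RefSeq promoter windows (GRCh38.p14), which run from 250 bases before to 50 bases after a start site. Windows were found for 32 of the 37 genes. The core was present in 7 of 10 of the cytosolic genes listed as driven by ATF4, in 0 of 6 of the other cytosolic genes, in 1 of 14 of the mitochondrial genes and in 0 of 2 of the scaffold genes. Over all genes with a window the share was 4.46%, and over the genes tested 2.90%. The 10 listed genes had 15 windows, against 6 for the 6 other cytosolic genes and 18 for the 14 mitochondrial genes. Since the list is of known ATF4 targets and ATF4 binds this element, its share of matches is not independent of the list. A match is a description of the letters and not a binding site. The matches are shown because they mark a sequence difference between the cytosolic and mitochondrial lists that does not come from the arrays, each as 30 bases on the strand on which the core reads TGATGNAA, with the core in capitals.
AARS1, chr16:70289675-70289704, plus strand: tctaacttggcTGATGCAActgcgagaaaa
CARS1, chr11:3057407-3057436, plus strand: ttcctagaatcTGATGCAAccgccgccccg
GARS1, chr7:30594834-30594863, minus strand: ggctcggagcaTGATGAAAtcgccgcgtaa
IARS1, chr9:92293692-92293721, plus strand: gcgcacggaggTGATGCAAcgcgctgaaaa
MARS1, chr12:57488053-57488082, minus strand: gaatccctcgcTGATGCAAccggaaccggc
NARS1, chr18:57621804-57621833, minus strand: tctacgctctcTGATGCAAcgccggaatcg
TARS1, chr5:33440956-33440985, minus strand: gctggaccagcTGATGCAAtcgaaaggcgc
YARS2, chr12:32756076-32756105, minus strand: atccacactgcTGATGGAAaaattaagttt
The core of AARS1 began 187 bases and that of YARS2 197 bases before the start site, whereas the other 6 began between 33 bases before and 14 bases after it. Among the 6 genes of the ATF4 list with a match and a measured level, the log2 fold change ran from 0.01 in TARS1 to 0.28 in MARS1. SARS1, WARS1 and EPRS1, which had larger differences, held no match in their windows. YARS1, which also had a larger difference, is not among the genes with a match. Only 10 of the 13 genes of the ATF4 list had a window to search.

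Silencing was measured on the probe of CCAR2, where the log2 signal was 11.26 ± 0.22 (SD, n = 3) in siLUC and 9.92 ± 0.04 in siCCAR2 arrays, a fold change of -1.34 on the log2 scale (limma adjusted p = 0.0394). Calls required a 1.5-fold difference in either direction and a limma p, adjusted by Benjamini-Hochberg over the 12013 genes, of at most 0.05. This called 3 genes, or 0.025% of those tested. With the arrays coupled as described below (D with A, E with B, F with C), the same thresholds called 200 genes, or 1.66%. The adjusted p-values given by gene are those without couples unless the block is named. The arrays detected 17583 to 19408 probes each, and array F had the lowest summed signal. Of 8 mesenchymal and bone markers, VIM, COL1A1, RUNX2, ALPL and SPARC were detected on all 6 arrays, BGLAP on 1 and COL1A2 and SP7 on none. Of 4 epithelial markers, EPCAM, KRT8 and KRT18 were detected on all 6 arrays and CDH1 on none. No blood or endothelial marker was detected on more than 1 array. SPARC was itself called (-1.71, limma adjusted p = 0.0394), and the linear signal summed over the 6 measured mesenchymal and bone markers was 38323 to 39236 in siLUC and 31644 to 32947 in siCCAR2 arrays. Such a sum is weighted to the brightest probe, that of VIM, at a mean log2 signal of 14.75 in siLUC arrays. VIM differed by -0.18, ALPL by -0.50 (SE 0.58), RUNX2 by -0.12, COL1A1 by -0.09 and BGLAP by 0.06, none of them called. The sum over EPCAM, KRT8 and KRT18 was 1140 to 1315 in siLUC and 1464 to 1761 in siCCAR2 arrays. KRT8 differed by 0.52, KRT18 by 0.32 and EPCAM by -0.03, none of them called. The part of these markers in the differences of the synthetase genes was not tested.

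None of the 35 synthetase and scaffold genes was called, against the 0.025% of all genes, and their lowest adjusted p was 0.767. Their differences were small and mostly on one side: 30 of 35 had a higher mean in siCCAR2 arrays, against 50.9% of all genes tested, although with each array scaled to its median alone this was 20 of 35, the median of all genes then being -0.11. The median log2 fold change was 0.14 over the members and 0.00 over all genes. The members ran from -0.26 to 0.53. The 95% interval of limma excluded an increase of 1.5-fold in 20 of the 35 genes, or 57.1%, where it did so in 81.1% of all genes. It excluded 0 in SARS1 and PARS2, or 5.71%, against 6.49% of all genes. These were also the 2 members higher at an unadjusted p under 0.05, a share of 5.71% against 3.49% of all genes, and no member was lower at that level, where 3.01% of all genes were. The 2 became 7 without siLUC array B, 4 without D and 1 without A, C, E or F. The share of all genes at that level was not counted with an array left out, so these counts have no background beside them. Arrays measure the mean of a culture, so that a change per cell and a change in the share of some cells cannot be told apart. The p-values of limma set the difference of the means against the spread between the 3 arrays of a condition. That spread is drawn toward the one typical of all genes tested, so a standard error can exceed what a gene's own arrays give.

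**Figure D1:**
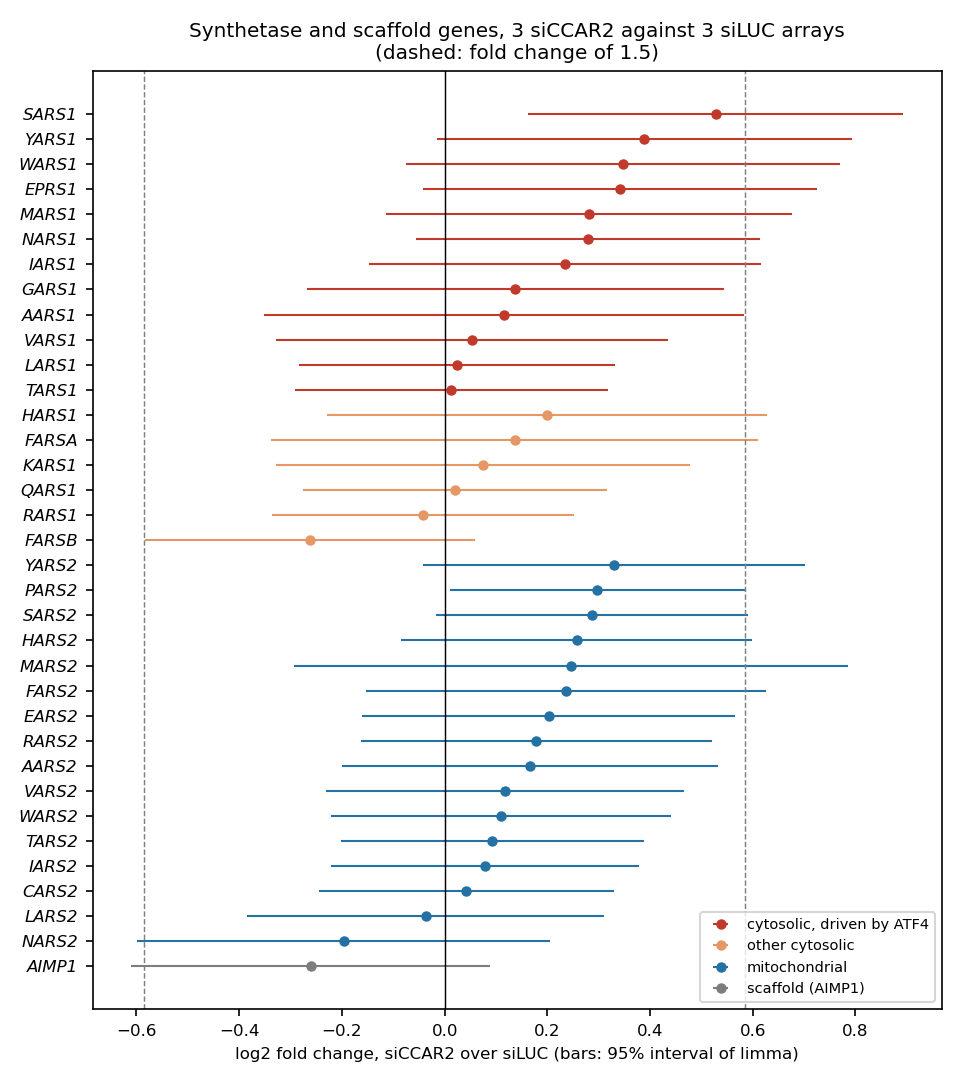
Log2 fold change of siCCAR2 over siLUC for the 35 measured genes, with bars for the 95% interval of limma and dashed lines at a fold change of 1.5. The points lie between -0.26 and 0.53, and only the intervals of SARS1 and PARS2 lie wholly above 0.

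The cytosolic genes listed as driven by ATF4 held the 4 highest values among the members, those of SARS1, YARS1, WARS1 and EPRS1. All 12 that were measured had a higher mean in siCCAR2 arrays, with a median log2 fold change of 0.26 and a range of 0.01 to 0.53, although AARS1, LARS1, TARS1 and VARS1 turned to slightly below 0 when arrays were scaled to their median alone. The list comes from textbook knowledge and was chosen with results of these data known.

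SARS1, the seryl-tRNA synthetase of the cytosol, had log2 signals of 10.82, 10.78 and 10.61 in siLUC arrays A, B and C and of 11.09, 11.15 and 11.56 in siCCAR2 arrays D, E and F. All siCCAR2 arrays were above all siLUC arrays, and F was the highest by a wide margin. The group means were 10.74 ± 0.11 and 11.27 ± 0.25 (SD, n = 3), a difference of 0.53 (SE 0.16, 95% interval 0.16 to 0.89) or 1.44-fold, with an adjusted p of 0.767 in limma. Without array F the difference was 0.39.

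YARS1, the tyrosyl-tRNA synthetase, had log2 signals of 12.02, 12.47 and 12.04 in A, B and C and of 12.31, 12.64 and 12.74 in D, E and F. The groups overlapped, since siLUC array B was above siCCAR2 array D. The means of 12.18 ± 0.25 and 12.57 ± 0.23 (SD, n = 3) differed by 0.39 (SE 0.18), with a limma adjusted p of 0.773.

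WARS1, the tryptophanyl-tRNA synthetase, which is also known as an interferon-induced gene, had log2 signals of 9.25, 9.67 and 8.99 in A, B and C and of 9.55, 9.81 and 9.60 in D, E and F. Again B was above the lowest siCCAR2 arrays. The difference was 0.35 (SE 0.19), with a limma adjusted p of 0.793. The second detected probe of WARS1 had signals of 10.10, 10.22 and 9.75 against 10.31, 10.36 and 10.16, a difference of 0.25 in the same direction.

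EPRS1, which joins glutamate and proline to their tRNAs in a single chain, had log2 signals of 11.85, 12.07 and 11.67 in A, B and C and of 11.95, 12.40 and 12.27 in D, E and F. Here too D was below B, and the groups overlapped. The difference was 0.34 (SE 0.17), with a limma adjusted p of 0.784.

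The other 8 genes of the ATF4 list had smaller differences. NARS1, the asparaginyl-tRNA synthetase, was the only one of these whose groups did not overlap, with 12.33, 12.29 and 12.33 in siLUC arrays and 12.38, 12.82 and 12.59 in siCCAR2 arrays. Its siLUC arrays were nearly equal, and D lay just above them. The difference was 0.28 (SE 0.15). MARS1, which charges methionine to the initiator and elongator tRNAs, differed by 0.28 and IARS1, for isoleucine, by 0.23. GARS1 differed by 0.14 and AARS1 by 0.12. In GARS1 the siCCAR2 arrays D and E, at 13.38 and 13.37, were below siLUC arrays A and B, at 13.49 and 13.53. Both were above siLUC array C, at 13.19, and only F, at 13.87, was above all siLUC arrays. In VARS1, LARS1 and TARS1 the differences were 0.05, 0.02 and 0.01, each below its standard error.

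**Figure D2:**
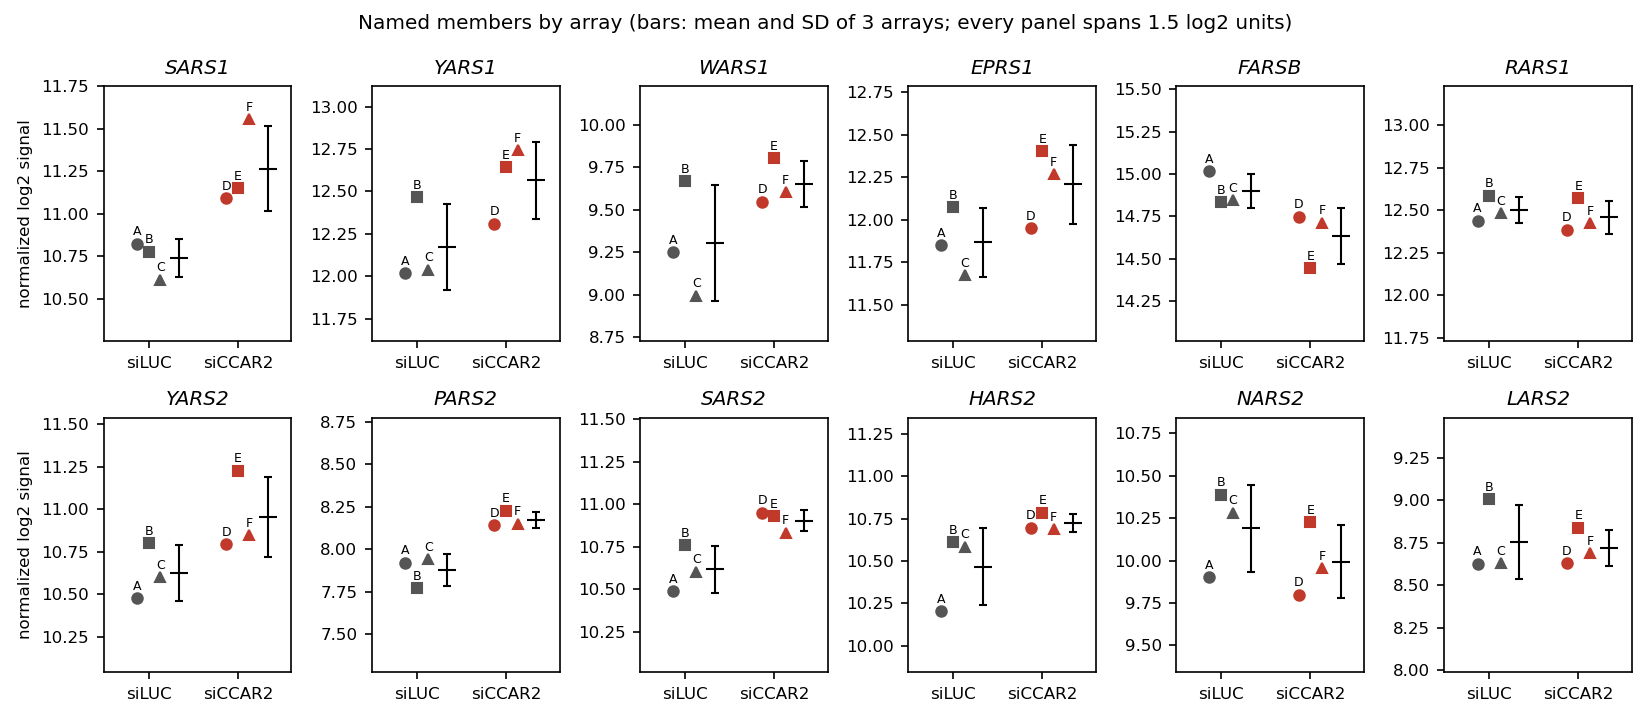
Normalized log2 signal of 12 members on arrays A to C (siLUC, grey) and D to F (siCCAR2, red), with the mean and SD of 3 arrays, each panel spanning 1.5 log2 units. The groups are apart in SARS1, PARS2, SARS2 and HARS2, with siCCAR2 higher, and in FARSB, with siCCAR2 lower.

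The 6 cytosolic genes outside the ATF4 list had a median log2 fold change of 0.05, with a range of -0.26 to 0.20. The median was -0.05 without siLUC array C, 0.14 without B and 0.00 without siCCAR2 array E. The mean was higher in siCCAR2 arrays for HARS1 (0.20), FARSA (0.14), KARS1 (0.07) and QARS1 (0.02), although KARS1 and QARS1 turned to below 0 with arrays scaled to their median alone. RARS1, the arginyl-tRNA synthetase, had log2 signals of 12.44, 12.59 and 12.48 in A, B and C and of 12.39, 12.57 and 12.43 in D, E and F. These groups overlapped almost entirely. The difference was -0.04 (SE 0.13, 95% interval -0.34 to 0.25).

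FARSB, the beta subunit of the phenylalanyl-tRNA synthetase, had log2 signals of 15.02, 14.83 and 14.85 in A, B and C and of 14.75, 14.45 and 14.71 in D, E and F. All siCCAR2 arrays were below all siLUC arrays, with E the lowest. The means of 14.90 ± 0.10 and 14.64 ± 0.17 (SD, n = 3) differed by -0.26 (SE 0.14, 95% interval -0.58 to 0.06), with a limma adjusted p of 0.793. This probe was among the brightest of the array, at 49.95% to 64.6% of the highest signal on its array. The second probe of FARSB was detected on no array and differed by 0.13 in the opposite direction. FARSB was the only member whose probes differed in sign, and FARSA, the alpha subunit of the same enzyme, had 7.96, 8.65 and 8.04 against 8.13, 8.58 and 8.35, a difference of 0.14.

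The 7 measured synthetases of the multisynthetase complex had a median log2 fold change of 0.07, and the 11 measured cytosolic genes outside it 0.14. EPRS1 stood highest in the complex and RARS1 lowest among its synthetases. AIMP1, the measured scaffold protein, had log2 signals of 6.89, 6.93 and 7.17 in A, B and C and of 6.57, 6.95 and 6.68 in D, E and F. The groups overlapped at array E, and the difference was -0.26 (SE 0.15) with a limma adjusted p of 0.824. Its probe was detected on 1 array only, C, with detection p-values between 0.036 and 0.23 on the others, so that this difference lay near the level of the negative control beads.

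The 16 mitochondrial genes were all measured. Their median log2 fold change was 0.17, against 0.14 over the 18 cytosolic genes and 0.00 over all genes, and 14 of the 16 had a higher mean in siCCAR2 arrays, of which CARS2, IARS2, TARS2 and VARS2 turned to slightly below 0 with arrays scaled to their median alone. That scaling gave a median of 0.05 for the 16 genes and of -0.11 for all genes, and 14 of the 16 stayed above the latter. Leaving out siLUC array C gave 0.08 and leaving out siCCAR2 array E 0.11. The cytosolic median became 0.25 without B, 0.07 without C and 0.23 without D. None of these genes is on the ATF4 list.

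YARS2, the mitochondrial tyrosyl-tRNA synthetase, had log2 signals of 10.48, 10.80 and 10.60 in A, B and C and of 10.79, 11.23 and 10.85 in D, E and F. B and D were nearly equal, so that the groups just overlapped. The difference was 0.33 (SE 0.16), with a limma adjusted p of 0.784.

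PARS2, the prolyl-tRNA synthetase of the mitochondrion, had log2 signals of 7.92, 7.77 and 7.94 in A, B and C and of 8.14, 8.23 and 8.15 in D, E and F. All siCCAR2 arrays were above all siLUC arrays, with little spread in either group. The means of 7.88 ± 0.09 and 8.17 ± 0.05 (SD, n = 3) differed by 0.30 (SE 0.13, 95% interval 0.01 to 0.59) or 1.23-fold, with a limma adjusted p of 0.767.

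SARS2, which charges serine to mitochondrial tRNAs, had log2 signals of 10.49, 10.76 and 10.60 in A, B and C and of 10.95, 10.93 and 10.83 in D, E and F. The siCCAR2 arrays were again all above the siLUC arrays, here with D the highest. The difference was 0.29 (SE 0.13), with a limma adjusted p of 0.776.

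HARS2, the mitochondrial histidyl-tRNA synthetase, had log2 signals of 10.20, 10.61 and 10.58 in A, B and C and of 10.70, 10.78 and 10.69 in D, E and F. The groups did not overlap, although D and F lay just above B. The difference was 0.26 (SE 0.15), with a limma adjusted p of 0.824. HARS2 is the divergent neighbour of HARS1, and the start sites of both genes in the RefSeq windows are 85 bases apart. The stretch between them is shown because it serves both a cytosolic and a mitochondrial member, on the plus strand, with the start sites of HARS1 (first base) and HARS2 (last base) in capitals.
HARS1 and HARS2, chr5:140691370-140691455, plus strand: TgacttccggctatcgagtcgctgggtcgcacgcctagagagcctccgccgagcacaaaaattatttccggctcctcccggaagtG
HARS1 had log2 signals of 10.66, 10.91 and 10.25 in A, B and C and of 10.66, 10.99 and 10.77 in D, E and F, with the groups overlapping, so that the pair of neighbours had differences of 0.20 and 0.26.

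Of the other mitochondrial genes, MARS2 (0.25), FARS2 (0.24), EARS2 (0.20), RARS2 (0.18) and AARS2 (0.17) lay at or above the median of all measured synthetase genes, and VARS2 (0.12), WARS2 (0.11), TARS2 (0.09), IARS2 (0.08) and CARS2 (0.04) below it. Their groups all overlapped. At the low end, NARS2, the mitochondrial asparaginyl-tRNA synthetase, had log2 signals of 9.90, 10.39 and 10.28 in A, B and C and of 9.80, 10.23 and 9.95 in D, E and F. Here A lay within the siCCAR2 arrays. The difference was -0.20 (SE 0.18, 95% interval -0.60 to 0.20). LARS2, for leucine, had 8.63, 9.01 and 8.63 against 8.63, 8.84 and 8.69, a difference of -0.04 (SE 0.15).

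Groups that did not overlap were found in 5 of the 35 genes with siCCAR2 higher (SARS1, NARS1, PARS2, SARS2 and HARS2), where 6.35% of all genes tested were so, and in 1, FARSB, with siCCAR2 lower, where 5.68% were so. All 6 encode class II synthetases, the structural class that holds 16 of the measured genes against 17 of class I, while EPRS1 joins a domain of each class. The median log2 fold change was 0.12 in class I and 0.15 in class II, and within class II it was 0.14 for the cytosolic and 0.24 for the mitochondrial genes. No difference between classes was tested.

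Cytosolic and mitochondrial genes whose symbols share the amino acid letter formed 14 pairs, both FARSA and FARSB being paired with FARS2, which was the larger each time. The cytosolic gene had the larger log2 fold change in 7 pairs and the mitochondrial gene in 7, with a median difference of -0.01. Both were above 0 in 10 pairs. EPRS1 was left out of these counts because its symbol differs from those of EARS2 and PARS2. Its value of 0.34 was above both of theirs, 0.20 and 0.30. For serine the values were 0.53 for SARS1 and 0.29 for SARS2, and for tyrosine 0.39 for YARS1 and 0.33 for YARS2. The widest gaps were between NARS1 and NARS2 (0.28 against -0.20) and between FARSB and FARS2 (-0.26 against 0.24). These gaps were not tested, and the 4 values carry standard errors of 0.14 to 0.18.

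**Figure D3:**
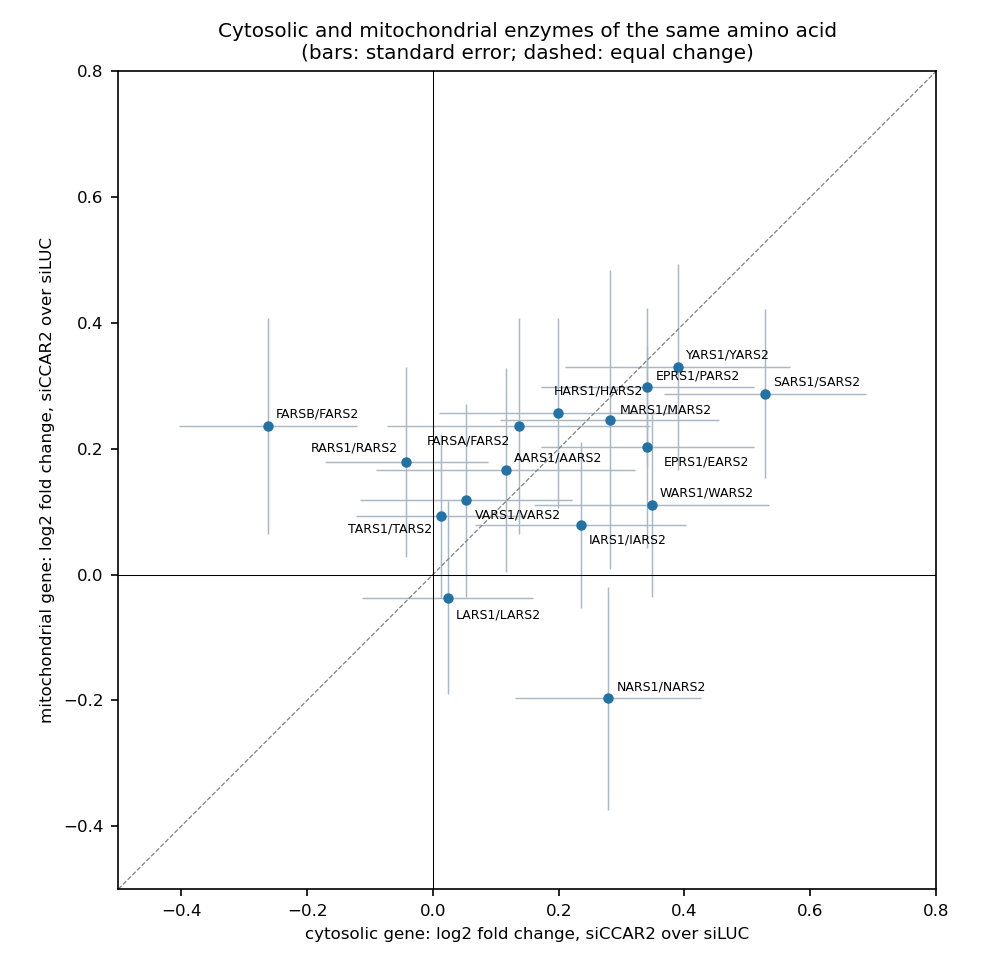
Log2 fold change of each mitochondrial gene (vertical) against the cytosolic gene for the same amino acid (horizontal), with bars for the standard error, and EPRS1 set against both EARS2 and PARS2. Points spread on both sides of the dashed line of equal change, with NARS1/NARS2 the lowest and FARSB/FARS2 the leftmost.

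The order of the arrays within a condition was counted over the members. Among siLUC arrays, B was the highest in 12 of 18 cytosolic and in 12 of 16 mitochondrial genes, where it was so in 37.7% of all genes. B was the lowest in 4 cytosolic and 2 mitochondrial genes, against 39.0% of all genes. C was the lowest in 9 of the cytosolic and 7 of the mitochondrial genes, against 32.8% of all genes. Among siCCAR2 arrays, D was the lowest in 13 of 18 cytosolic genes, against 33.1% of all genes. In the mitochondrial genes D and F were each the lowest in 8 of 16, where F was so in 29.0% of all genes. E was the highest in 11 cytosolic and 10 mitochondrial genes, against 36.7% of all genes, and F in 6 cytosolic and 2 mitochondrial genes, against 30.7%. Measured as the median difference from the siLUC mean, the genes of the ATF4 list stood at -0.06, 0.16 and -0.13 in A, B and C and at 0.07, 0.34 and 0.34 in D, E and F. Array D was thus below siLUC array B, and the groups overlapped. The mitochondrial genes stood at 0.01, 0.14 and -0.03 in siLUC arrays and at 0.08, 0.25 and 0.12 in siCCAR2 arrays, which overlapped at B as well. The median over all genes stayed between -0.01 and 0.01 on every array.

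**Figure D4:**
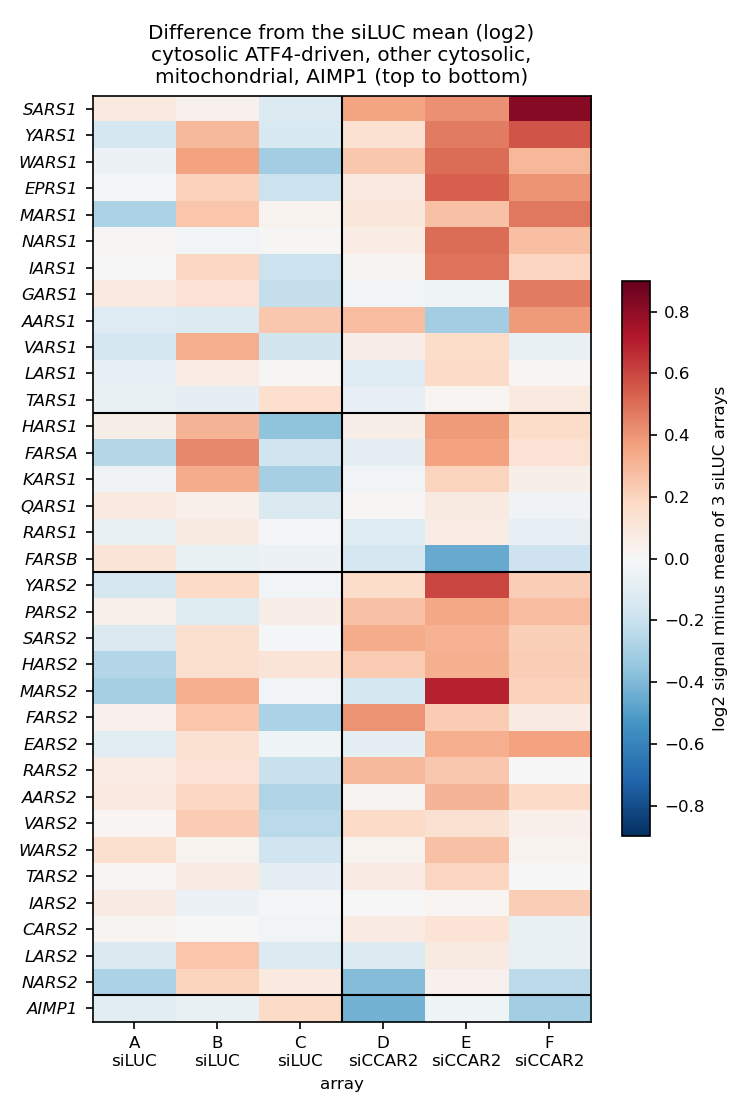
Log2 signal of each member minus the mean of the siLUC arrays, by array, with rows for the cytosolic ATF4 list, the other cytosolic genes, the mitochondrial genes and AIMP1. The column of array B is mostly above 0 although it is a siLUC array, and D is the palest of the siCCAR2 columns in the cytosolic rows.

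**Figure D5:**
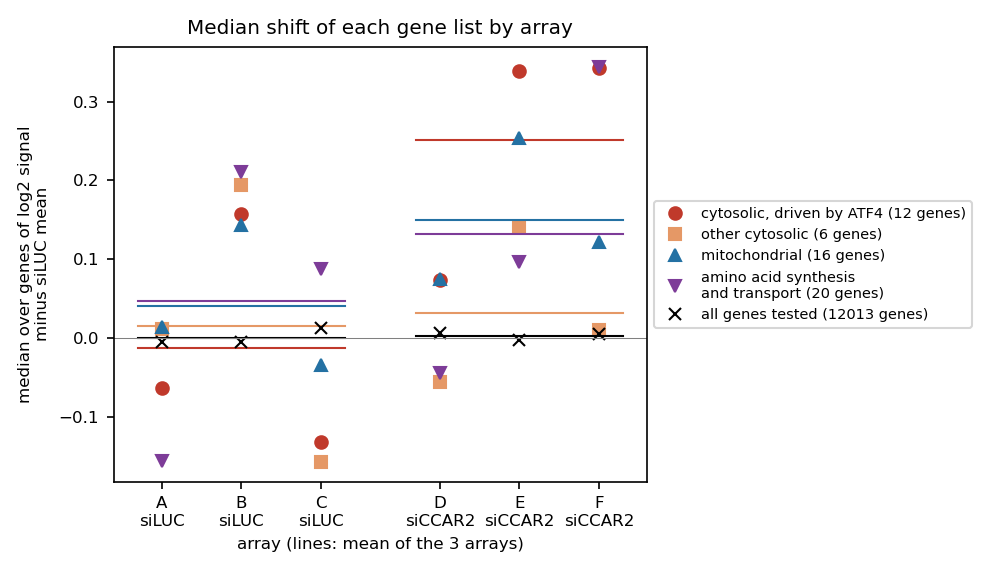
Median over the genes of a list of the log2 signal minus the siLUC mean, by array, with lines for the mean of 3 arrays. The ATF4 list stands at 0.34 in arrays E and F and at 0.07 in D, while all genes tested stay near 0.

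Over all genes, the deviations of array D from its group mean correlated with those of A (0.615), as did those of E with B (0.665) and those of F with C (0.440), and the study calls its comparison paired, but no label pairs these arrays. Under a replicate block of these couples, 9 of the 35 members were higher at an unadjusted p under 0.05 and none was lower, where 9.09% of all genes were higher and 8.18% lower. The 9 were SARS1, YARS1, WARS1, EPRS1, MARS1 and NARS1, all of the ATF4 list, and the mitochondrial YARS2, PARS2 and SARS2. No member was called under the block, where 1.66% of all genes were called. Nor did a member reach an adjusted p of 0.05 at any fold change, as 2.28% of all genes did, and the lowest adjusted p of limma was 0.0717, for SARS1. Since no label gives these couples, which were known from earlier work on these data, the p-values of the block are not those of a labelled pairing. By couple, 11 of 18 cytosolic genes were higher in D than in A, 11 in E than in B and 15 in F than in C, and the medians were 0.03, 0.06 and 0.33. For the mitochondrial genes the counts were 12, 12 and 14 of 16, with medians of 0.10, 0.12 and 0.22. A gene was higher in all 3 couples in 7 of 18 cytosolic and 8 of 16 mitochondrial genes, against 20.2% of all genes. It was lower in all 3 in 2 cytosolic genes and 1 mitochondrial gene, against 18.6% of all genes.

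The list of the integrated stress response holds genes upstream of ATF4 as well as genes induced by it, such as TRIB3, and was measured in 17 of 18 genes. None was called, 12 were above 0 and the median was 0.11. ATF4 itself, regulated mostly by translation, had log2 signals of 8.39, 8.76 and 8.24 in A, B and C and of 8.73, 8.53 and 8.29 in D, E and F, a difference of 0.06 (SE 0.18, 95% interval -0.35 to 0.47). The groups overlapped fully on this probe, and the other 2 detected probes of ATF4 differed by 0.24 and 0.09, with overlap on both. These 2 were brighter, at mean log2 signals of 10.90 and 14.25 in siLUC arrays against 8.46 on the kept probe. TRIB3, a pseudokinase induced by ATF4, had 9.99, 9.79 and 10.00 against 10.53, 10.34 and 11.37, a difference of 0.82 (limma adjusted p = 0.767). All siCCAR2 arrays were above the siLUC arrays. NUPR1, a stress-induced chromatin protein, differed by 0.92 (limma adjusted p = 0.747), and SESN2, a leucine sensor of the mTORC1 pathway, by 0.66. In TRIB3, NUPR1 and SESN2 array F was the highest, as it was in SARS1. TRIB3 and NUPR1 were called under the replicate block, as 1.66% of all genes were.

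Amino acid synthesis and transport genes, which share ATF4 with the synthetases, were all measured (20 of 20). None was called, 16 were above 0 and the median was 0.15. ASNS, the asparagine synthetase and a textbook ATF4 target, had 9.87, 9.97 and 10.31 in siLUC and 9.96, 9.91 and 10.68 in siCCAR2 arrays, a difference of 0.13 (SE 0.23) with full overlap except for F. The second, brighter detected probe of ASNS had 10.99, 11.50 and 11.52 against 11.52, 11.61 and 12.53. This was a difference of 0.55 with all siCCAR2 arrays above the siLUC arrays. On the 1 probe kept per gene, the largest differences were those of the cystine transporter SLC7A11 (0.42, SE 0.39), its partner SLC3A2 (0.29) and the serine synthesis enzyme PSAT1 (0.29). Probes disagreed in PYCR1, an enzyme of proline synthesis, with -0.03 on the kept probe and 0.46 and 0.08 on the other detected probes. The kept probe was the dimmest of these, at a mean log2 signal of 7.61 in siLUC arrays against 10.57 and 7.86.

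Genes that work on the same tRNAs were listed too. Of 25 tRNA processing and export genes, 22 were measured, 14 of them above 0, with a median of 0.10 and none called. The largest differences on the kept probes were those of TSEN15, a subunit of the tRNA splicing endonuclease (-0.41, against -0.07 and -0.09 on its other detected probes), ELAC1, a tRNA 3' processing nuclease (-0.41, detected on 2 arrays only), and the tRNA methyltransferase TRMT1 (0.39). Of 9 accessory genes of charging and editing, 7 were measured, 4 of them above 0, with a median of 0.07 and none called. Among them PSTK, which phosphorylates seryl-tRNA on the way to selenocysteine, differed by -0.22 and the editing deacylases DTD1 and DTD2 by 0.22 and 0.18. TARS3, a threonyl-tRNA synthetase listed with further synthetase genes, differed by 0.12.

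Mitochondrial translation factors, the partners of the mitochondrial synthetases, were measured in 8 of 9 genes, 5 of them above 0, with a median of 0.06 and none called. The elongation factor TUFM differed by 0.26, with siCCAR2 arrays all above siLUC arrays, the release factor MTRF1 by -0.19 and the initiation factor MTIF2 by 0.16. The median of the mitochondrial synthetases was 0.17. No difference between these lists was tested.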

How the data were processed

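Total RNA of U2OS cells was measured on 6 arrays, 3 per condition. The authors deposited linear bead intensities that were not normalized, with a detection p-value for every probe. The deposited labels name BeadStudio 3.8 for this step and the methods GenomeStudio. They also deposited a table of quantile-normalized signals on an intensity scale, used here as an alternative only. The methods name robust spline normalization, which was not run. The labels name an FFPE kit and a microRNA guide for the RNA, the methods Qiazol and a TotalPrep kit.

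The log2 of these signals was quantile normalized, and no background was subtracted. Of 47321 probes, 30112 had 1 symbol in the platform annotation and 17201 none, and only the former were used. Probes detected (p under 0.01) in at least 1 array were kept, with 1 probe per symbol, the one detected on most arrays and then of highest interquartile range, leaving 12013 genes. The moderated test of limma (3.58.1, run under R 4.3.3) compared siCCAR2 with siLUC, and p-values were adjusted by Benjamini-Hochberg across all genes. An exact permutation test of 3 against 3 arrays cannot go below 0.1 and was not used. The number of arrays limits the precision. Fits were tested on simulated data. Lists were described by counts and medians. Array values are given for members with an unadjusted p under 0.05, the 4 highest and 2 lowest differences among cytosolic and among mitochondrial genes, the scaffold gene, and members whose probes differ in sign. The 3 largest differences are named for each other list, with CCAR2, ATF4, TRIB3 and ASNS. GARS1, NARS1, HARS1, FARSA and the second probe of WARS1 were given after their values were seen. The members and lists were chosen with earlier results of these data known.

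The couples of the replicate block (D with A, E with B, F with C) are given by no label and were known from earlier work on these data. Of the 6 pairings possible this is the only one in which every couple's deviations correlate positively. Promoter sequences are those of RefSeq (GRCh38.p14). As alternatives, normalization was changed to neqc (offset 16), cyclic loess, median scaling alone or the deposited table. The detection filter was dropped or raised to 3 arrays, and the brightest probe or every probe was taken. A trended robust eBayes, array weights, the replicate block, no fold threshold and the omission of each array were also run. Medians of the lists by ATF4, counts of members and changes made together with the block were chosen later, with the data in view.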

Additional observations from a re-analysis of the deposited data

How the results depend on the processing

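Over 17 alternatives, 593 fold changes of the 35 members were recomputed. Of these, 563 kept their direction and 30 changed sign, while 21 members kept their direction in every alternative run. No member was called under any of the 17. The called genes of the whole table were 3, and 0 with neqc, with median scaling alone or with the brightest probe per gene, 18 with array weights and 200 with the replicate block, and 0 to 7 with 1 array left out. Members higher at an unadjusted p under 0.05 were 2, and 1 with median scaling alone, 4 without a detection filter, 9 with array weights, 9 with the replicate block and 1 to 7 with 1 array left out. Over all genes this share was counted only before any alternative (3.49%) and with the replicate block (9.09%). The replicate block left the medians and directions as they were and changed no member's call. It was repeated without both arrays of a couple, which was chosen after seeing the data. Without B and E, SARS1 was called (difference 0.598, limma adjusted p = 0.0236), so that 1 member was called. In that setting 248 genes were called higher and 261 lower among the 11916 tested, so that the call was not particular to SARS1. Without C and F the difference of SARS1 was 0.325 (limma adjusted p = 0.531).

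The median of the mitochondrial genes was 0.0456 with median scaling alone and 0.0756 to 0.244 with 1 array left out, where the lowest value was that without C and the highest that without B. The median of the cytosolic genes was then 0.0665 to 0.252, that of the ATF4 list 0.188 to 0.355 and that of the other cytosolic genes -0.0485 to 0.142. The signs that changed with median scaling alone were those of AARS1 (-0.00745), KARS1 (-0.0617), LARS1 (-0.117), QARS1 (-0.0880), TARS1 (-0.118), VARS1 (-0.0801), CARS2 (-0.0464), IARS2 (-0.0484), TARS2 (-0.00747) and VARS2 (-0.0117). This scaling also moved the median of all genes to -0.108, and 14 of 18 cytosolic and 14 of 16 mitochondrial genes stayed above that median. Array weights turned QARS1 (-0.0444), LARS2 (0.0317) and WARS2 (-0.00739). With 1 array left out, sign changes occurred within -0.0205 to 0.329 for AARS1, -0.0248 to 0.225 for GARS1, -0.0755 to 0.241 for KARS1, -0.0497 to 0.0954 for LARS1, -0.0453 to 0.0668 for QARS1, -0.0982 to 0.000278 for RARS1, -0.0279 to 0.0874 for TARS1, -0.0276 to 0.214 for VARS1, -0.0988 to 0.0899 for LARS2 and -0.00526 to 0.233 for VARS2. The cause of these changes was not tested. SARS1 ran from 0.386 without F to 0.619 without D, with adjusted p-values of 0.0717 to 0.999 over the 17 alternatives. A p-value above the threshold does not show equal levels.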
